A study of Mus musculus with 6 samples.

Results

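Bile acid conjugation, synthesis and uptake genes of mouse liver were examined as a group of 10 genes, 5 sinusoidal uptake carriers (Slc10a1, Slco1a1, Slco1a4, Slco1b2 and Slco2b1) and 5 enzymes outside the cytochrome P450 family (Hsd3b7, Akr1d1, Acox2, Slc27a5 and Baat). The genes were chosen by symbol, with earlier results of these data known, and all 10 had a probe set among the 16331 gene probe sets of the deposited table. Liver RNA of 6 samples was hybridised to Affymetrix arrays, 3 labelled wildtype (arrays 426, 428 and 430) and 3 labelled Ugcg-deficient (arrays 427, 429 and 431, titled KO and called knockout here). Ugcg makes glucosylceramide, the first step of most glycosphingolipids. The allele, the promoter or cell type behind the deficiency, the strain, sex, age and any pooling of animals are not stated in the labels. Nothing says that each sample came from its own animal, so p-values reflect only how far these samples vary, which may be technical variation.

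Hepatocytes make bile acids from cholesterol. P450 enzymes hydroxylate the sterol, and other enzymes turn the double bond, reduce the ring, shorten the side chain in peroxisomes and join the acid to taurine (in mice) or glycine. Bile acids that return from the gut in portal blood are taken up at the sinusoidal face of the hepatocyte, by the sodium-dependent carrier NTCP (Slc10a1) and by sodium-independent organic anion transporting polypeptides (Slco genes), and leave again through the canalicular pump Abcb11. The nuclear receptor FXR (Nr1h4) senses bile acids and represses their synthesis, in part through Nr0b2.

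A set of 3 carrier genes, Slco1b2, Slco1a4 and Slco1a1, lies in the Slco1 cluster on chromosome 6. It holds both genes of the 10 whose wildtype and knockout arrays did not overlap. Of all probe sets, 9.57% had groups that did not overlap, and neither gene passed the limma adjusted p under 0.05. RefSeq promoter windows (GRCm38.p6, 250 bases before to 50 after the start) were found for 8 of the 10 genes, 12 windows in all. The windows of the clustered genes are shown with that of Akr1d1, the enzyme gene with the largest difference, each read 5′ to 3′ on the strand of its gene. Slco1b2 lies at chr6:141629268-141629567 on the plus strand, Slco1a4 at chr6:141856171-141856470 on the minus strand, Slco1a1 at chr6:141946913-141947212 on the minus strand and Akr1d1 at chr6:37529923-37530222 on the plus strand. Capitals mark matches, on either strand, to GTTAAT (one arm of the palindrome bound by the hepatocyte factor HNF1) or TATAAA (the TATA box letters).
Slco1b2: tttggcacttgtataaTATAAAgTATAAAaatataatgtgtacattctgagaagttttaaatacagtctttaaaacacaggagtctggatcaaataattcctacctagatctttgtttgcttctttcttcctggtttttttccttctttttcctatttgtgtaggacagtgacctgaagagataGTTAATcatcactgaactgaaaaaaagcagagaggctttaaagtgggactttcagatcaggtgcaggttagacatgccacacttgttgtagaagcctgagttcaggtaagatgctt
Slco1a4: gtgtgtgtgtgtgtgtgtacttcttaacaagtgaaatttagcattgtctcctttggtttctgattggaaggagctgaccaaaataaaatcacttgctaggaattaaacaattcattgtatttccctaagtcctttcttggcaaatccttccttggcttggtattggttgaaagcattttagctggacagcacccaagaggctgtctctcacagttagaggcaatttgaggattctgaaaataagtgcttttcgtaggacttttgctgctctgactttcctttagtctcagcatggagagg
Slco1a1: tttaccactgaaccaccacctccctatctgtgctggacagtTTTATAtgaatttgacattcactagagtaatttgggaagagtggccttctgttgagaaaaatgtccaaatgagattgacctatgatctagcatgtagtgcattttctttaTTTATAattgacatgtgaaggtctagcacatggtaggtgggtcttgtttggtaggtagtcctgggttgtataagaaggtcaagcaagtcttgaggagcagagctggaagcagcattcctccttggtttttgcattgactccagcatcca
Akr1d1: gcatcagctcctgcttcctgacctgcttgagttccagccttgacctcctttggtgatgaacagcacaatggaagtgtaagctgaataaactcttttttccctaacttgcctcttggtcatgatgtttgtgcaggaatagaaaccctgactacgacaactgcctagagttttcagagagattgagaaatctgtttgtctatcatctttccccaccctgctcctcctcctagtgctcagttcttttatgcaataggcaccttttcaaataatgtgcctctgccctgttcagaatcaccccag
GTTAAT was present in the window of 1 of the 8 genes, Slco1b2, where it begins 66 bases before the start, and in 7.10% of 32851 mouse promoter windows of the same length. TATAAA was present for 3 of the 8 genes, Slco1b2, Slco1a1 and Slc10a1, and in 13.6% of all windows. Relative to the start, its matches begin at -234 and -227 in Slco1b2, on the strand of the gene. They begin at -209 and -99 in Slco1a1 and at -128 in Slc10a1, on the opposite strand. TGTTTAC, the letters of a FOXA site, was present for 0 of the 8 genes and in 3.65% of all windows. No match of a motif overlapped a match of another. The counts are by gene, and some genes have several windows, whereas the shares are by window. The counts and shares are therefore in unlike units. The matches are of letters in a fixed window and do not show binding.

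The tissue and the arrays were checked first. The measured hepatocyte markers (8 of 10 listed) had a list mean of 13.6 to 13.7 on every array, with albumin at 14.60 to 14.69. Of these markers, 2 had groups that did not overlap, against 9.57% of all probe sets. Tat was higher on the knockout arrays, by 0.43, and Fga was lower, by -0.13. Wildtype 430 carried exocrine pancreas transcripts: the mean of 9 measured markers was 9.54 there and 6.65 to 6.86 elsewhere, with Cela2a at 10.13 against 6.18 to 6.55. Wildtype 430 and knockout 427 stood apart on the first principal component, at -14.5 and -11.9 against 3.69 to 9.44 for the other arrays. The cholangiocyte list (6 measured) was highest on knockout 429, 0.388 above its wildtype mean, with the bile duct keratin Krt19 at 7.60 against 6.33 to 6.46 elsewhere. The adipose tissue and muscle list (7 measured) lay 0.522 above its wildtype mean on knockout 427, with the muscle actin Acta1 at 8.48 against 6.28 to 6.63 elsewhere, and 0.212 above it on knockout 431, with the adipocyte hormone Adipoq at 6.92 against 5.81 to 6.10. The Kupffer cell and macrophage list (8 measured) deviated by -0.398 on knockout 431. The endothelial, stellate cell, lymphocyte and red blood cell lists deviated by -0.188 to 0.181 over all arrays. Xist read 5.81 to 5.97, near the lowest value of the table (5.38), and the Y-linked Eif2s3y 8.29 to 8.93 over the 6 arrays. Eif2s3y was lower on the knockout arrays, by -0.31, without overlap (limma adjusted p = 0.951). The groups overlapped for Xist and for the Y-linked Uty. The Ugcg probe set read 6.81, 6.85 and 6.87 on wildtype arrays and 7.12, 6.70 and 6.68 on knockout arrays 427, 429 and 431; which exons its probes read is not given, so it does not check the labels, and every direction here rests on them. In liver tissue, fewer hepatocytes and less RNA per hepatocyte cannot be told apart.

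The comparison of Ugcg-deficient with wildtype liver asked whether these carrier and enzyme genes differed between genotypes. None of the 10 passed an adjusted p under 0.05 in limma, where 0.0245% of all probe sets passed (4 of 16331). All 5 carriers had a lower mean on the knockout arrays, led by Slco1a1 (-0.27 on the log2 scale) and Slco1b2 (-0.20). Of all probe sets, 47.5% had a lower mean. The sign of Slco1a4 and of Slco2b1 turned when 1 array was left out, and Slc10a1 differed by only -0.00423 without knockout 429. By contrast, 3 of the 5 enzymes had a higher mean, led by Akr1d1 (0.21). The limma adjusted p lay between 0.951 and 0.996 for the 10 genes. Differences are knockout minus wildtype, and levels and differences are on the log2 scale of the deposited values.

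**Figure D1:**
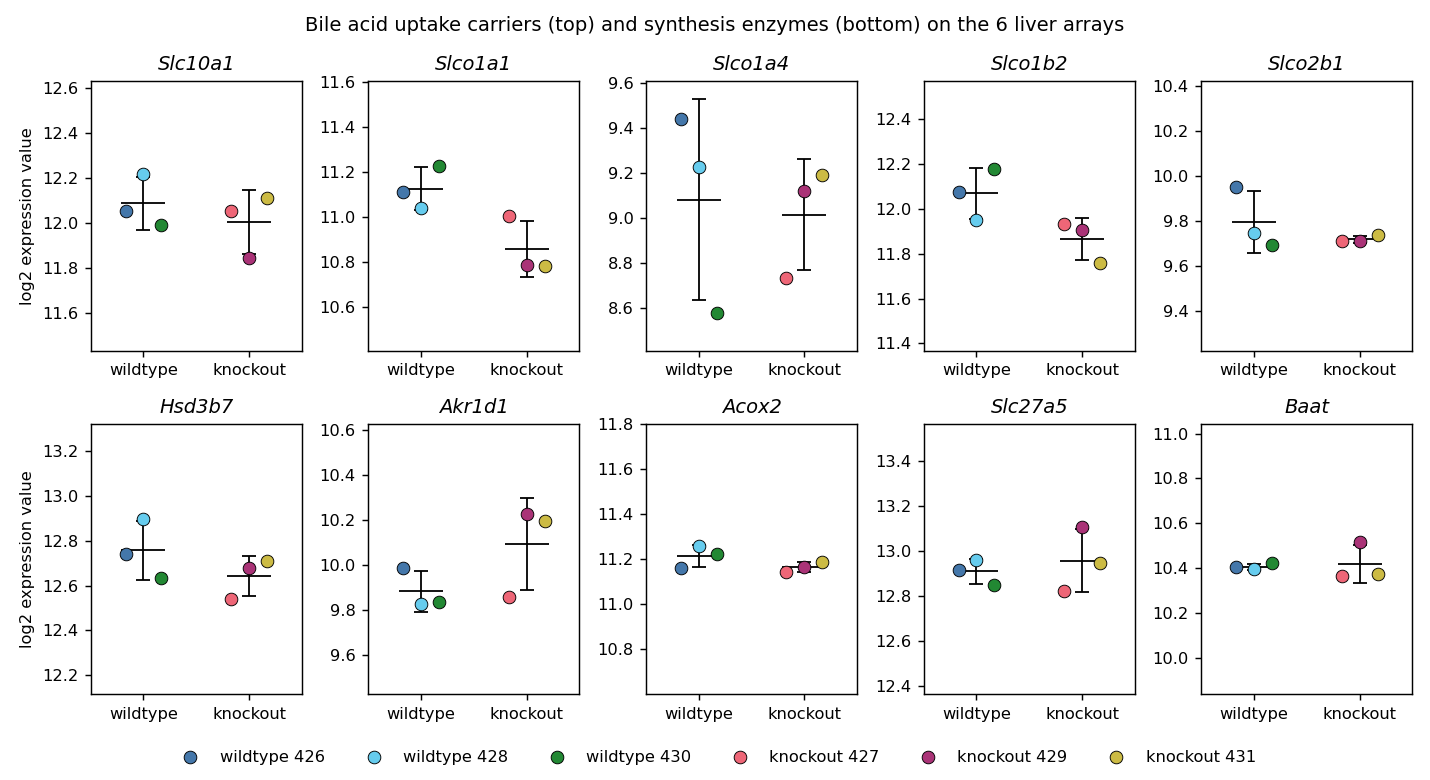
Log2 expression value (y axis) of the 5 uptake carriers and 5 synthesis or conjugation enzymes on 3 wildtype and 3 knockout arrays; points are arrays, and the bars give the mean ± SD of each group. Each panel spans the same log2 range around its own gene. All knockout points lie below all wildtype points for Slco1a1 and Slco1b2, and the groups overlap for the other 8 genes.

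Slco1a1 encodes OATP1A1, a carrier of bile acids and steroid conjugates that is more abundant in male than in female mouse liver. It read 11.11, 11.04 and 11.23 on wildtype arrays 426, 428 and 430 and 11.003, 10.79 and 10.78 on knockout arrays 427, 429 and 431. All knockout arrays lay below all wildtype arrays, with knockout 427 closest to them. The means were 11.13 ± 0.09 and 10.86 ± 0.13 (SD, n = 3 each), a difference of -0.27 (SE 0.0879, 95% interval -0.468 to -0.0689), or 0.830-fold. The limma p was 0.0140 before and 0.951 after adjustment over all probe sets.

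Slco1b2 encodes OATP1B2, the mouse counterpart of the human hepatocyte carriers OATP1B1 and OATP1B3, which takes up unconjugated bile acids, bilirubin and drugs. Its wildtype arrays read 12.07, 11.95 and 12.18, and its knockout arrays 11.93, 11.91 and 11.76. The groups again did not overlap, but knockout 427 lay 0.0215 below wildtype 428. The difference was -0.20 (SE 0.0851, 95% interval -0.396 to -0.0100), or 0.869-fold, with a limma p of 0.0413 before and 0.982 after adjustment. Groups that do not overlap with the knockout lower were found for 4.47% of all probe sets (730 of 16331), and an unadjusted p under 0.05 with the knockout lower for 2.35%. Both genes were highest on wildtype 430, the array with pancreatic transcripts; without it Slco1a1 differed by -0.217 and Slco1b2 by -0.148, and the part of those transcripts in the result was not tested. Neither had an unadjusted limma p under 0.05 without wildtype 430, nor without knockout 431, the array lowest for both; nor did Slco1b2 without wildtype 426 or knockout 429. Knockout 431 also had the lowest Kupffer cell list, whose part in the result was not tested.

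Slco1a4 encodes OATP1A4, a carrier of bile acids, digoxin and steroid conjugates that is also found at the blood-brain barrier. Of the 10 genes it varied most, over a 1.82-fold range across the 6 arrays, and this range did not follow genotype. It read 9.44, 9.23 and 8.58 on wildtype arrays 426, 428 and 430 and 8.73, 9.12 and 9.19 on knockout arrays 427, 429 and 431. The lowest readings were those of wildtype 430 and knockout 427, the arrays that stood apart on the first principal component. The difference of -0.07 had a 95% interval from -0.540 to 0.406, so a change from 0.688-fold to 1.32-fold was within the error. The sign turned without wildtype 426 (0.112), knockout 427 (0.0742) or wildtype 428 (0.00570), and the difference was -0.319 without wildtype 430. Among named genes, the 5 with the smallest root mean square distance from Slco1a4 in mean-centred values over the 6 arrays were Sgk2 (0.0577), Fam214a (0.0639), 1810046K07Rik (0.0920), Aldh4a1 (0.0922) and Tmem131l (0.0988).

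Slc10a1, the sodium-taurocholate cotransporter that brings in most conjugated bile acids, read 12.05, 12.22 and 11.99 on the wildtype and 12.05, 11.84 and 12.11 on the knockout arrays. The groups overlapped, with the highest reading on wildtype 428 and the lowest on knockout 429. The difference was -0.08 (SE 0.0953, 95% interval -0.300 to 0.132), and it was -0.00423 without knockout 429 and -0.0182 without wildtype 428. Slco2b1, which encodes the organic anion and steroid sulfate carrier OATP2B1, read 9.95, 9.75 and 9.69 on the wildtype and 9.71, 9.71 and 9.74 on the knockout arrays. Wildtype 426 lay above the other arrays, which spanned 9.69 to 9.75; the difference was -0.08 (SE 0.0830) with all arrays and 0.000163 without wildtype 426. The lower mean of Slco2b1 therefore rested on wildtype 426, and that of Slc10a1 largely on either of its extreme arrays.

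**Figure D2:**
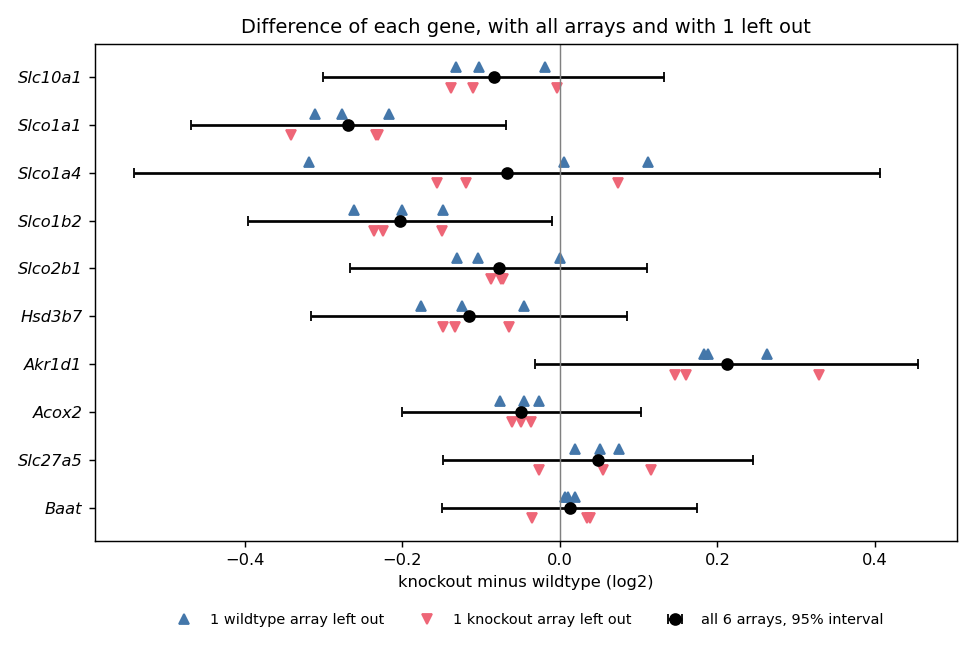
Knockout minus wildtype difference (x axis, log2) of each of the 10 genes (y axis). Black points with bars are the limma estimate and 95% interval from all 6 arrays, and triangles are the estimates with 1 array left out. The intervals of Slco1a1 and Slco1b2 lie below 0, the other 8 include 0, and the triangles of Slco1a4, Slco2b1, Slc27a5 and Baat lie on both sides of 0.

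The other measured Slco1 genes of the cluster gave no reading well apart from the low end of the table, whose lowest value was 5.38. Gm5724, between Slco1b2 and Slco1a4, and Gm6614, between Slco1a1 and Slco1a6, had no probe set under these symbols. Slco1a5 read 5.76 to 5.997, Slco1a6 5.66 to 5.91 and Slco1c1, the thyroid hormone carrier of brain vessels, 5.99 to 6.20 over the 6 arrays. Their differences were 0.13, 0.02 and 0.04, and none passed. On the outer sides of the cluster, Pde3a read 6.02 to 6.18 and differed by -0.05, and Iapp read 5.72 to 5.82 and differed by -0.005; both also lay near the low end of the table, where a lower level would hardly be measured. Genes of the Slco1 family resemble each other in sequence, and since the probe positions are not given, signal shared between them was not tested.

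Among the enzymes, Hsd3b7 acts first. It oxidises the 3-hydroxyl group of the hydroxylated sterol and moves its double bond, for all routes of bile acid synthesis. Hsd3b7 read 12.74, 12.90 and 12.63 on the wildtype and 12.54, 12.68 and 12.71 on the knockout arrays. The groups overlapped, with only knockout 427 below all wildtype arrays. The difference was -0.12 (SE 0.0885, 95% interval -0.316 to 0.0855). It was -0.0452 without wildtype 428, the highest array, -0.0641 without knockout 427 and -0.176 without wildtype 430.

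Akr1d1, the steroid 5-beta-reductase that gives bile acids their bent ring system, had the largest positive difference of the 10 genes. It read 9.99, 9.83 and 9.84 on the wildtype and 9.86, 10.23 and 10.20 on the knockout arrays. Knockout 429 and knockout 431 lay above all wildtype arrays, and knockout 427 lay within them. The difference was 0.21 (SE 0.107, 95% interval -0.0315 to 0.455), or 1.16-fold, with a limma p of 0.0804 before and 0.982 after adjustment. It was 0.329 without knockout 427 and 0.146 without knockout 429.

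The last steps shorten the side chain and conjugate it. Acox2, the peroxisomal oxidase of branched-chain bile acid intermediates, was the steadiest gene of the group, with an SD of 0.0442 over all arrays. It read 11.16, 11.26 and 11.22 on the wildtype and 11.14, 11.17 and 11.19 on the knockout arrays, and its difference of -0.05 had a 95% interval from -0.201 to 0.102 and was -0.0262 without wildtype 428 and -0.0760 without wildtype 426. Slc27a5 encodes bile acid CoA ligase, which activates the acid for conjugation. It read 12.91, 12.96 and 12.85 on the wildtype and 12.82, 13.10 and 12.94 on the knockout arrays. Its difference of 0.05 (95% interval -0.148 to 0.245) turned to -0.0259 without knockout 429, the highest array. Baat transfers the activated bile acid to taurine or glycine. It read 10.40, 10.40 and 10.42 on the wildtype and 10.37, 10.52 and 10.38 on the knockout arrays. The knockout arrays lay on both sides of the narrow wildtype range, and the difference of 0.01 (95% interval -0.149 to 0.174) turned to -0.0355 without knockout 429. For Baat the interval covered changes from 0.902-fold to 1.13-fold, and for Acox2 from 0.870-fold to 1.07-fold; larger changes lay outside it.

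**Figure D3:**
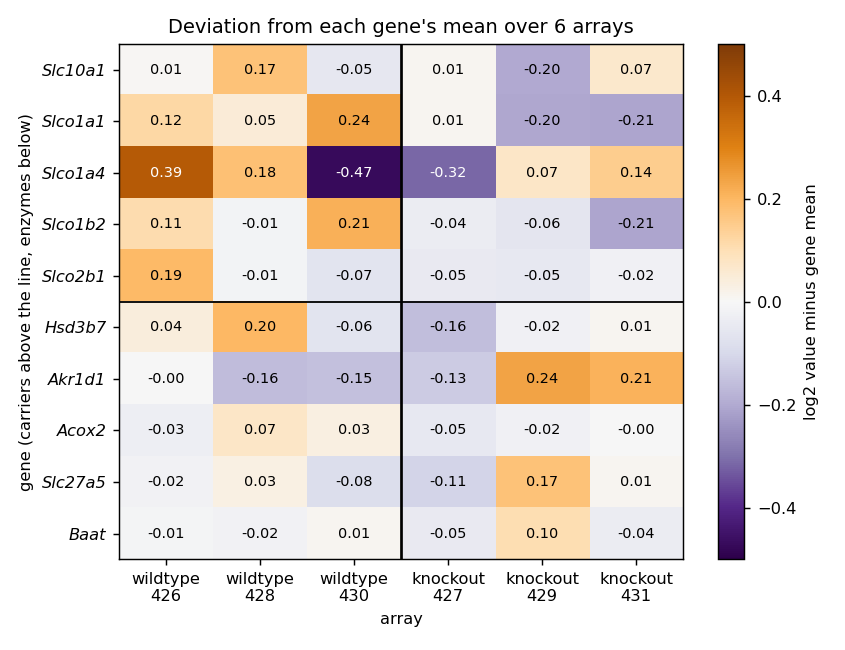
Deviation of each array (columns) from the mean over 6 arrays of each gene (rows), in log2 units, with wildtype arrays left and knockout arrays right of the thick line. Slco1a4 shows the widest spread, with its lowest values on wildtype 430 and knockout 427; knockout 429 is highest for Akr1d1, Slc27a5 and Baat, and knockout 427 is below the mean for all 5 enzymes.

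Single arrays shaped several of these patterns. Knockout 427 was below the 6-array mean for all 5 enzymes and held the lowest reading of 4 of the 10 genes (Hsd3b7, Acox2, Slc27a5 and Baat). It was also the array with the highest adipose and muscle list, whose part in these readings was not tested. Knockout 429 held the highest reading of 3 enzymes and the lowest of Slc10a1. It had the highest cholangiocyte list, whose part was likewise not tested. Wildtype 426 was above the mean for all 5 carriers. Over the 10 genes the median difference was -0.0724, against 0.00586 over all probe sets, and 7 of 10 were below 0, against 47.5% of all probe sets. The median was -0.0840 for the carriers and 0.0124 for the enzymes; the gap between these groups was not tested. The median over the 10 genes ran from -0.131 without wildtype 430 to -0.0222 without wildtype 428. It was -0.0379 without wildtype 426, -0.112 without knockout 431, and -0.126 without both wildtype 430 and knockout 427.

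The surrounding pathway was described with 5 further lists, 66 genes in all, of which 60 had a named probe set; 0 of the 60 passed the limma adjusted p, and 6 had an unadjusted p under 0.05, against 4.99% of all probe sets. Of the 8 genes of the P450 list, which includes the non-P450 hydroxylase Ch25h, 4 were above 0 and 4 below (median -0.0108). Cyp7a1, the rate-limiting enzyme of the classical pathway, read 10.35, 9.52 and 10.53 on the wildtype and 9.59, 11.19 and 10.90 on the knockout arrays. Its groups overlapped through knockout 427, and the difference of 0.43 (SE 0.396) was 0.914 without that array, 0.122 without wildtype 428, 0.117 without knockout 429 and 0.259 without knockout 431, none past the limma threshold. Cyp8b1, the sterol 12-alpha-hydroxylase that sets the cholic acid share, read 11.41, 11.78 and 11.31 against 10.88, 11.83 and 11.67 and differed by -0.04. Knockout 427 was the lowest array for Cyp8b1 and the lowest knockout array for Cyp7a1. Cyp7b1 of the acidic pathway differed by 0.26 with all arrays and by 0.0241 without wildtype 426. Cyp39a1, an oxysterol hydroxylase, differed by 0.29, Cyp27a1, the mitochondrial side-chain hydroxylase, by 0.02 and Cyp2c70, which makes muricholic acids, by -0.04.

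Of 10 measured genes of other side-chain and peroxisomal steps, 6 were above 0 and 4 below (median 0.0462). Akr1c14, a 3-alpha-hydroxysteroid dehydrogenase, had the smallest p of all the bile acid lists. It read 11.87, 11.83 and 12.19 on the wildtype and 11.62, 11.44 and 11.49 on the knockout arrays, without overlap. The difference was -0.45 (SE 0.106), with a limma p of 0.00244 before and 0.698 after adjustment. It was highest on wildtype 430, as Slco1a1 and Slco1b2 were, and differed by -0.331 without that array. The peroxisomal genes Hsd17b4 (0.11), Acaa1b (0.09), Slc27a2 (-0.02) and Acot12 (-0.12) and the aldo-keto reductase Akr1c6 (-0.09) had overlapping groups.

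Export and regulation showed no list-wide direction. Of 12 genes of canalicular and basolateral export, 6 were above 0 and 6 below (median -0.0168). Abcb11, the bile salt export pump, read 12.01, 11.83 and 11.84 on the wildtype and 11.71, 11.90 and 11.73 on the knockout arrays and differed by -0.11 (SE 0.0852). The phospholipid flippase Abcb4 differed by 0.06, the basolateral exporter Abcc3 by -0.04, Abcg2 by 0.21, and the subunits of the basolateral bile acid exporter, Slc51a and Slc51b, by -0.16 and 0.17. Of 14 measured regulators, 7 were above 0 and 7 below (median 0.00374). FXR (Nr1h4) differed by 0.06 and its target Nr0b2 by 0.18. Nr0b2 read 10.04 on knockout 427 and 9.13 to 9.45 elsewhere. The hepatocyte factor Foxa2 differed by -0.61 (limma adjusted p = 0.952), or by -0.375 without knockout 431. The coactivator Ppargc1a differed by -0.33, Mafg, a repressor that FXR induces, by -0.24, Nr5a2, which drives Cyp7a1 and Cyp8b1, by -0.12, and Hnf4a by -0.02. Of 16 measured genes of the wider organic anion transporter families, 9 were above 0 and 7 below (median 0.0233). The prostaglandin carrier Slco2a1 differed by 0.37 and Slc10a7 by -0.16, both with groups that did not overlap (9.57% of all probe sets did so in either direction), the organic anion carrier Slc22a7 by 0.26 and Slc10a3 by 0.05.

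**Figure D4:**
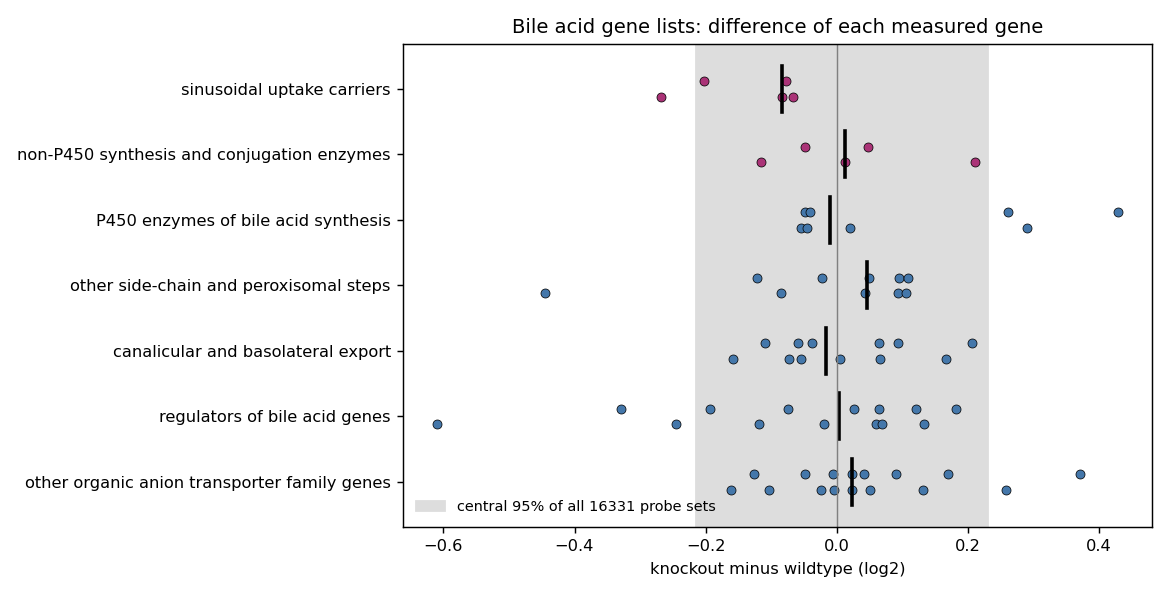
Knockout minus wildtype difference (x axis, log2) of each measured gene in 7 bile acid lists (rows); the 10 carrier and enzyme genes are in purple, the vertical black lines are list medians, and the grey band holds the central 95% of all probe sets (-0.215 to 0.231). Slco1a1 is the 1 gene of the 10 outside the band, and the list medians lie between -0.0840 and 0.0462.

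The sex-biased genes of the liver were set beside Slco1a1, a male-biased gene, and Slco1a4, a female-biased gene. Of 9 measured male-biased genes, Slco1a1 included, 7 were below 0 (median -0.0983) and 0 passed the limma adjusted p. The groups did not overlap for 1 of them, Slco1a1 itself. The shares over all probe sets were 47.5% below 0 and 9.57% without overlap. The mean of the male-biased list ran from 11.28 to 11.82 on the wildtype and from 11.23 to 11.65 on the knockout arrays, highest on wildtype 430. Of 7 measured female-biased genes, 4 were above 0 and 3 below (median 0.0225). Whether these genes have a part in the readings of Slco1a1 was not tested.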

How the data were processed

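The authors deposited 1 log2 expression value per probe set and array, a scale read from the values (5.38 to 14.7). Per the labels' protocols, biotinylated cRNA went on Affymetrix arrays; how the authors corrected, normalized and summarised the signals is not given here, and the values were used unchanged. Of 16395 probe sets, 64 controls were left out; of the other 16331, 15644 had 1 gene symbol, 0 several and 687 none. RefSeq tables of GRCm38.p6 matched all 10 Entrez numbers and gave gene order and promoter windows.

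The genotypes were compared with limma (version 3.58.1 in R 4.3.3; 4 residual, 4.85 prior degrees of freedom; two-sided; Benjamini-Hochberg over 16331 probe sets). An exact permutation of 3 and 3 arrays reaches p = 0.1 at best, so none was run. The number of arrays limits precision (median standard error 0.0847). With 200 of 16331 simulated probe sets changed, limma recovered 64.6% of changes of 0.5 and 98.2% of changes of 1. These rates depend on that number of changed genes. The differences of the 10 genes ran from -0.27 to 0.21, and recovery of changes below 0.5 was not tested.

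Genes and lists were chosen with earlier results of these data known, and no list was tested. The text names the 10 genes, from each other list the 3 with the smallest p and the 3 with the highest mean, Cyp7a1, Cyp8b1, Abcb11, Nr1h4, Nr0b2, the Slco1 neighbours and a few markers. Refits used quantile normalization, centring on array medians, a filter at the 40th percentile of the mean (all 10 genes pass), a variance trend with robust estimation, array weights, and fewer arrays; the calls were also made over named genes alone and at 0.1. Plots used matplotlib 3.10.9 (Python 3.11.15).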

Additional observations from a re-analysis of the deposited data

How the results depend on the processing

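None of the 10 genes passed the limma threshold under any of 14 settings beside the main one (lowest adjusted p 0.540). Over 12 refits per gene, Slc10a1, Slco1a1, Slco1b2, Hsd3b7, Akr1d1 and Acox2 kept the sign of their difference; the other 4 turned sign, each when 1 array was left out, with ranges of -0.319 to 0.112 for Slco1a4, -0.130 to 0.000163 for Slco2b1, -0.0259 to 0.116 for Slc27a5 and -0.0355 to 0.0387 for Baat. Leaving out 1 array moved the difference by over 1.5 times, up or down, in at least 1 refit for 8 of the 10 genes (not Slco1a1 or Slco1b2) and for 23 of 30 other named genes. The sign also turned for Cyp2c70 (-0.154 to 0.0838), Cyp27a1 (-0.0107 to 0.0781), Cyp8b1 (-0.225 to 0.249), Slc27a2 (-0.0671 to 0.0394), Abcb4 (-0.0417 to 0.169), Abcc3 (-0.165 to 0.0676), Hnf4a (-0.157 to 0.0518), Nr5a2 (-0.270 to 0.0280), Nr1h4 (-0.0345 to 0.117), Nr0b2 (-0.0770 to 0.377), Slc10a3 (-0.00635 to 0.114) and Ugcg (-0.154 to 0.0676). Without both wildtype 430 and knockout 427 it turned for Cyp2c70 (0.000977), Cyp27a1 (-0.00293), Cyp8b1 (0.153), Abcb4 (-0.0371) and Nr0b2 (-0.0317), and after quantile normalization for Cyp27a1 (-0.00811); the cause was not tested. Leaving out 1 array, the median difference ran from -0.131 to -0.0222 over the 10 genes, from -0.150 to -0.102 over the carriers, from -0.00741 to 0.0828 over the P450 list and from -0.066 to 0.0421 over the regulators. Without both arrays these medians were -0.126, -0.177, 0.0772 and -0.0767. The organic anion transporter median was 0.131 without dim probe sets, where fewer genes were tested. Of all probe sets, 4 passed with all arrays, 8 with array quality weights, 8 without both arrays, and 0 to 4 with 1 array left out (4 without wildtype 430 and 0 in the other refits, with 584 to 1022 at an unadjusted p under 0.05). No paired analysis was possible because the array numbers in the titles are not shared between the groups.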

Other observations

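The nuclear receptor gene Nr1i3 (CAR), which senses bilirubin and drugs, was named after its values were seen, because its 2 lowest arrays were those on which Slco1a4 was lowest. It read 9.10, 9.12 and 8.81 on wildtype arrays 426, 428 and 430 and 8.34, 9.19 and 8.91 on knockout arrays 427, 429 and 431. The genotypes overlapped, and the difference of -0.19 did not pass in limma (adjusted p = 0.984). Wildtype 430 and knockout 427 were also the 2 lowest arrays for other genes, among them Hsd3b7, Slc27a5, Nr5a2 and Abcc3. These genes too were picked after their values were seen, and the share of all probe sets with this pattern was not counted. Both arrays stood apart on the first principal component. A link between Nr1i3 and Slco1a4 was not tested.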
